A study of Mus musculus with 9 samples.

Results

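Narrow CpG-dense islands were described in the methylomes of primordial germ cells, the embryonic precursors of eggs and sperm, from wild-type (WT) and Tet1-null mouse embryos. An island was a run of only 1 or 2 consecutive 1 kb autosomal windows in which 40 or more CpG positions were listed, with a mean of at most 8 reads per listed site in each genotype. The choice used CpG positions and read depth, not methylation. It gave 10780 islands, 8777 of 1 window and 2003 of 2 windows, out of 11157 runs of dense windows and 2317179 autosomal windows with a listed CpG. Of the 10823 runs of 1 or 2 windows, 13 were left out over the depth limit and 30 because a genotype had no listed site in them. The islands held 721754 CpG positions, 4.02% of those on the autosomes in 0.552% of the windows, and 40 to 202 positions each with a median of 57.

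All cells came from female C57BL/6 embryos at embryonic day 13.5 and were profiled by whole-genome bisulfite sequencing. The WT group had 4 libraries from 1575 to 5251 cells, and the Tet1 -/- group 5 libraries from 1400 to 4700 cells. Bisulfite conversion used a Sigma kit for 2 WT and 2 Tet1-null libraries and a Zymo kit for 2 and 3, and sequencing run 1 held 1 WT library and no Tet1-null library. For Tet1-null libraries 1 and 2 an equal input of 3266 cells is stated, and an unexplained extra number stands in the names of WT libraries 1 and 3. The deposited values were 1 table per genotype with its libraries pooled, so each comparison is between 2 pools and has no replicate check, and kit, run and genotype cannot be told apart. The nature of the Tet1 allele is not given in the labels used here, and neither the deletion nor the identity of the cells can be read from CpG methylation at these islands.

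CpG islands are stretches in which CpG dinucleotides escaped the loss that methylation brings to the rest of the genome, and most of them lie at gene starts and are unmethylated in most cells. Primordial germ cells erase most DNA methylation, including that of imprinted genes, before meiosis. TET1 is a dioxygenase with a domain that binds CpG-rich DNA, and it oxidises 5-methylcytosine to 5-hydroxymethylcytosine, which bisulfite sequencing cannot tell from 5-methylcytosine.

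A level is methylated reads over all reads, and a read is counted at each CpG it crosses. Intervals are 95% counting intervals (Wilson for a level, Newcombe for a difference), which are too narrow because CpGs of a molecule and PCR copies are not independent. Where a limit is printed beside a count of 0, it is 3 counts of the total instead. In the text, WT cells and null cells stand for these 2 pools. The median island had 56 such read counts in WT cells and 105 in null cells, and 55.9% and 82.0% of island positions were listed. Shares of islands below are over the 9871 islands with 20 or more reads in each pool and 5 or more sites covered in both. The level on mitochondrial DNA, which serves as a measure of unconverted cytosine, was 1.66% in WT cells and 1.29% in null cells.

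Gene starts were placed by matching the CpG spacing of RefSeq promoter sequences (GRCm38.p6) to the listed positions. At least 1 start of 6442 genes fell on 5597 islands (51.9%). A further property, also read from positions alone, was recurrence: in 158 islands, at least 10% of the runs of 7 consecutive CpGs had a spacing found at 5 or more places of the autosomes and the X. These were called islands of recurrent spacing. The 5593 other islands with a gene start and the 5029 islands with neither property completed the set. Of 32851 RefSeq promoter sequences, 15982 had enough CpGs to search and 13337 were found at 1 place. Neither property thus means no matched start, and such islands may hold starts that were not matched. The 10% limit was chosen after levels had been seen, so the contrast between these kinds is a description without a test.

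The stretches below show what such islands are made of. The promoter stretches are the 250 bases before the RefSeq start of 4 genes whose islands are described further on: Zrsr1 at chr11:22971755-22972004 on the + strand, D1Pas1 at chr1:186967166-186967415 on the + strand, Sycp3 at chr10:88459337-88459586 on the + strand and Rpl10l at chr12:66284402-66284651 on the - strand. In them capitals mark CpGs with a methylated read in null cells. The 2 shorter stretches lie before RefSeq starts and carry a spacing of recurrent families 2 and 3, with all CpGs in capitals: A230004M16Rik at chr11:41710224-41710312 and Gm35240 at chr12:77553551-77553613, both on the + strand. All are RefSeq sequences of GRCm38.p6, read 5′ to 3′.
Zrsr1: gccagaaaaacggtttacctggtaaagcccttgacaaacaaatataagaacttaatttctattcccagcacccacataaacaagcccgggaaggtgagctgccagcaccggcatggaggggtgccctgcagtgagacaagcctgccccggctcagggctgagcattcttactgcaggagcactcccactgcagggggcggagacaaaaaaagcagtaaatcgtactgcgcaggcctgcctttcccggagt
D1Pas1: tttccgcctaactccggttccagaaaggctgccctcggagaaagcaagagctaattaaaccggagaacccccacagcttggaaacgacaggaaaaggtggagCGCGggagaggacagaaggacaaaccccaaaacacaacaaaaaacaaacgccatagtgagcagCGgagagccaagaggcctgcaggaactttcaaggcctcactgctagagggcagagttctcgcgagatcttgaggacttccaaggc
Sycp3: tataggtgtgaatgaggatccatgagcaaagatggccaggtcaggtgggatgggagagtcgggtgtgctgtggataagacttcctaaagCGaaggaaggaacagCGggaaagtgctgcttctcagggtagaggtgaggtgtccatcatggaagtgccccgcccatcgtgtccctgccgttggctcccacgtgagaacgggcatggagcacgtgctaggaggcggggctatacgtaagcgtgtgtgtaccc
Rpl10l: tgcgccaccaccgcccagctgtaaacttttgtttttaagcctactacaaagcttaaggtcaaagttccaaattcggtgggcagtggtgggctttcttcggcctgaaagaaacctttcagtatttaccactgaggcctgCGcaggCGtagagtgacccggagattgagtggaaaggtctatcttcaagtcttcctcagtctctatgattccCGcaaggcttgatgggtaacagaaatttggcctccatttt
A230004M16Rik: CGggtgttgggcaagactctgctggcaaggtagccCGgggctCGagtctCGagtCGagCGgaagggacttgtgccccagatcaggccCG
Gm35240: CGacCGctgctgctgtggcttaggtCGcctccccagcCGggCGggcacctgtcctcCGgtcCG

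In the Zrsr1 stretch none of the 8 CpGs had a methylated read, with 9 reads in each pool. D1Pas1 had methylated reads at 3 of its 11 CpGs in null cells, 6 of 28 reads, and 0 of 12 reads in WT cells. Of the 12 CpGs before Sycp3, 2 carried all 6 methylated reads of 47 in null cells, and WT cells had 1 of 16. Before Rpl10l, 3 of 8 CpGs had methylated reads, 5 of 17 in null cells and 0 of 11 in WT cells. These 4 do not stand for all gene starts: in the 250 bases before the start, Peg3 had 9 of 16 methylated reads in WT cells and 1 of 32 in null cells, Stambp 6 of 13 and 0 of 14, and the start of Rnf214 with WT methylation 11 of 18 and 0 of 16. The methylated counts of Stambp and Rnf214 came from neighbouring CpGs with 1 WT read each, so very few molecules may lie behind them. The A230004M16Rik spacing occurred at 426 places, of which 23 family 2 islands held it, and the Gm35240 spacing at 288 places and in 11 islands of family 3.

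Most islands were close to unmethylated in both pools. Over all 10780 islands the level was 2.97% (2.93 to 3.01%) in WT cells and 2.75% (2.72 to 2.77%) in null cells, 0.221 points lower in the latter (interval of the difference -0.270 to -0.172). This was 20130 methylated of 678657 read counts against 35104 of 1278728. The levels lay little above the mitochondrial ones, and subtracting those from each pool turned the difference to 0.150 points. It was also 0.0572 points, with null cells higher, where only sites read at least 3 times by both were kept. The median island was at 1.89% in WT cells and 1.70% in null cells, and the 95th percentile was 8.0% and 6.95%. The null level was higher in 4457 islands, lower in 4578 and equal in 836. Among these, 816 islands (8.27%) had no methylated read in either pool.

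**Figure D1:**
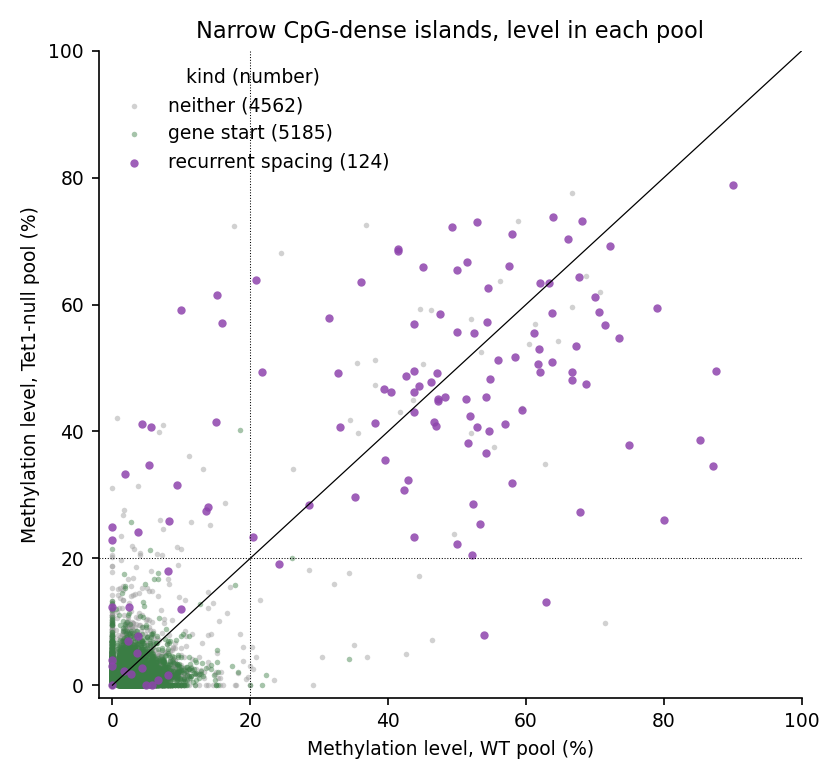
Methylation level of each of the 9871 islands with enough reads in WT cells (horizontal axis, percent) and null cells (vertical axis, percent), 1 point per island. Colours give the kind, dotted lines mark 20% and the line marks equal levels. The islands of recurrent spacing spread over the whole range while gene-start islands stay near the origin, with 5 of 5185 at 20% or more in each pool.

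Islands differed in level by CpG number. With all kinds together, the level was highest in the sparsest islands, and the order of the pools was opposite in sparse and dense islands. In the 4267 islands with 40 to 49 CpG positions per kb the level was 3.60% in WT cells and 3.87% in null cells, a difference of 0.260 points (0.163 to 0.357). In the 2941 islands with 50 to 59 positions it was 2.82% and 2.43% (-0.384 points, -0.474 to -0.295). With 60 to 79 positions, 2808 islands stood at 2.48% and 2.08% (-0.401 points, -0.483 to -0.320). The 764 densest islands, with at least 80 positions, stood at 2.68% and 2.09% (-0.592 points, -0.747 to -0.442). Across the 3 denser classes the levels within a pool differed by under 0.4 points, and null cells were the lower in each. The mitochondrial level was also lower in null cells (1.29% against 1.66%), and it was not subtracted from the levels by CpG number.

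Gene-start islands did not follow this order. Their WT level was 2.21%, 2.35%, 2.33% and 2.61% from the sparsest to the densest class, and their null level 2.04%, 1.97%, 1.97% and 1.96%. Null cells were the lower in every class of gene-start islands, by 0.173 points (-0.288 to -0.0601) in the sparsest and 0.654 points (-0.842 to -0.472) in the densest. Here too the mitochondrial level, itself lower in null cells (1.29% against 1.66%), was not subtracted, and its part in these differences was not tested. Islands with neither property stood at 3.03% and 3.27% with 40 to 49 positions, 0.242 points higher in null cells (0.120 to 0.363), and were lower in that pool in the 3 denser classes. The sparsest class also held 128 of the 158 islands of recurrent spacing. Runs of 1 window were at 3.18% and 3.03%, and runs of 2 windows at 2.49% and 2.12%.

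**Figure D2:**
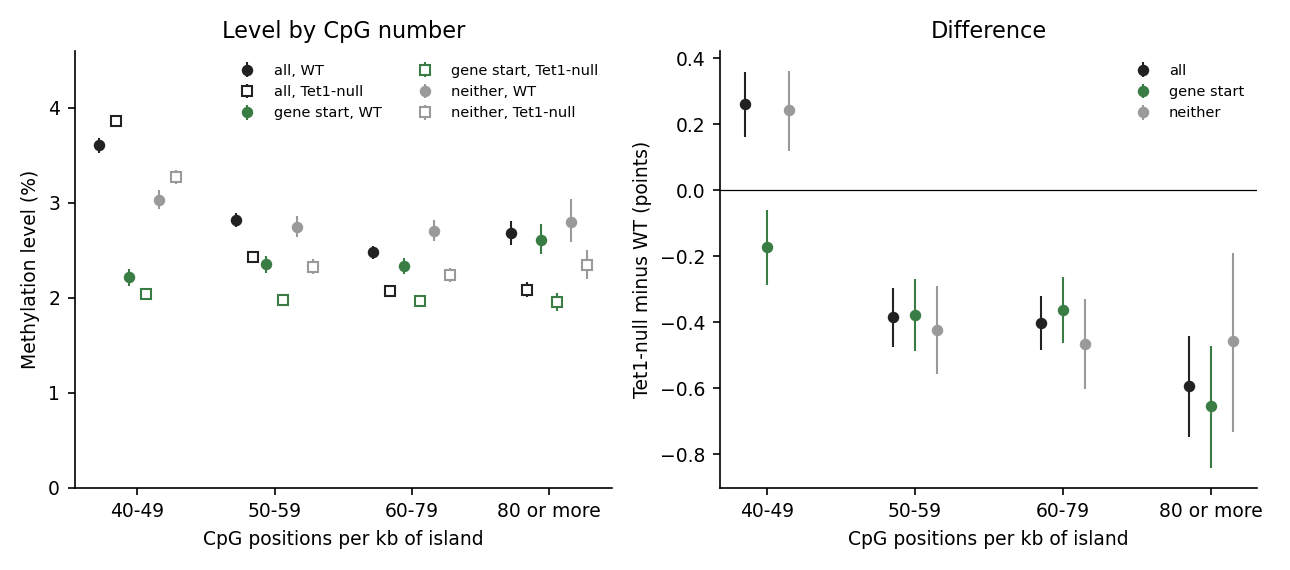
Left, methylation level (percent) of islands by CpG positions per kb, for all islands and for those with a gene start or with neither property, WT filled circles and Tet1-null open squares. Right, Tet1-null minus WT in points. Bars are 95% counting intervals. Among all islands the difference is above 0 at 40 to 49 positions and below 0 at higher numbers. All islands include those of recurrent spacing, 128 of them at 40 to 49 positions, which are not drawn apart.

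Windows just inside and just outside the limit of 40 positions had graded levels. Islands of 1 window with 45 to 49 positions were at 3.66% in WT cells and 3.82% in null cells, and those with 40 to 44 at 4.15% and 4.70%. Lone windows with 35 to 39 positions, just outside, were at 6.29% and 7.07%, and those with 30 to 34 at 7.35% and 8.55%. The 333 broader domains, of 3 or more windows in a row, had levels of 2.46% and 2.03% and so differed by -0.432 points. The difference of the islands was 0.211 points above that of the domains (0.0537 to 0.369). Windows of 20 to 39 positions away from dense windows were at 5.89% and 7.16%. Against them the difference of the islands was -1.50 points (-1.56 to -1.43).

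Around gene-start islands the order of the pools changed with distance. Within 500 bp of the midpoint the levels were 2.37% in WT cells and 1.98% in null cells. Between 500 and 1000 bp they were 2.03% and 2.00%, between 1000 and 2000 bp 2.32% and 2.68%, and between 2000 and 3000 bp 2.49% and 3.03%. The centre thus lay above its margin in WT cells and level with it in null cells. The mitochondrial level of each pool was not subtracted in this comparison by distance. Islands of recurrent spacing were at 42.1% and 42.5% within 500 bp of the midpoint, at 28.3% and 32.6% from 500 to 1000 bp, and at 21.4% and 19.9% from 2000 to 3000 bp.

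**Figure D3:**
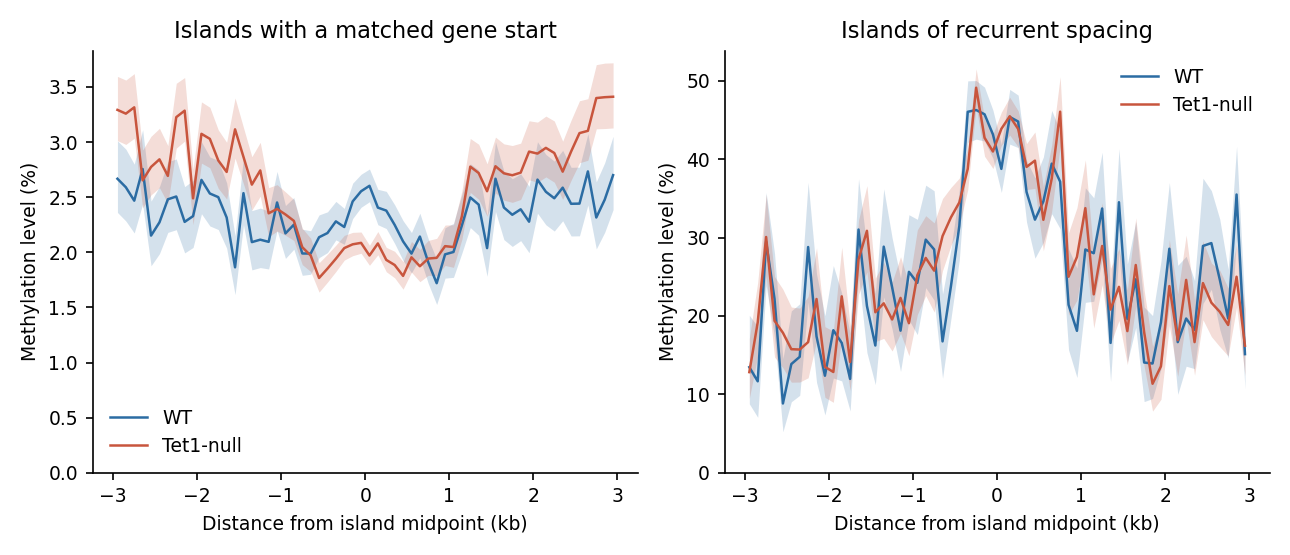
Methylation level (percent) in 100 bp bins by distance from the island midpoint (kb) for gene-start islands (left) and islands of recurrent spacing (right), WT in blue and Tet1-null in red. Bands are Wilson 95% intervals. At gene starts the Tet1-null line lies below the WT line in the centre and above it in most bins beyond 1000 bp, and at recurrent islands both peak over the island.

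Islands with any methylated read were common, and their share depended on depth. At least 1 methylated read was seen in 66.4% of islands in WT cells (65.5 to 67.4%) and in 78.0% in null cells (77.2 to 78.8%), where the median of these islands was 59 and 107 reads. In 20 reads drawn from each island without replacement (expected value) the shares were 36.0% and 33.0%. At the mitochondrial level alone, 20 reads would hold a methylated one in 28.4% and 22.8%. So the order of the pools at equal depth was opposite to that of the plain share, and the same as at the mitochondrial level alone. At 20 reads the shares by CpG number lay between 35.4% and 39.1% in WT cells and between 31.6% and 34.8% in null cells.

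Retained methylation, set at a level of 20% or more, was rare and at this limit largely at the same islands in both pools. It was found in 144 islands (1.46%, 1.24 to 1.71%) in WT cells and 164 (1.66%, 1.43 to 1.93%) in null cells. Both pools shared 119 of these, 82.6% of the WT list and 72.6% of the Tet1-null list. The overlap was smaller at other limits. At 50% or more there were 73 and 61 islands, with 41 in both (56.2% and 67.2% of the lists). At 10% or more there were 307 and 284, with 150 in both (48.9% and 52.8%). The 189 islands at 20% or more in either pool, 1.91% of the islands with enough reads, held 21.8% of the methylated reads in WT cells and 23.6% in null cells. Islands below 20% in both pools were at 2.35% and 2.08%.

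With all kinds together, the share retained was lower in denser islands. With 40 to 49 positions per kb it was 2.84% of 3806 islands in WT cells and 3.44% in null cells, and with 50 to 59 positions 0.994% of 2717 in both. With 60 to 79 positions 9 and 5 of 2623 islands were retained. Of 725 islands with 80 or more positions, 0 were retained in WT cells, which allows a share of up to 0.414%, and 1 in null cells. Recurrent spacing was found in 92 of the 144 islands retained in WT cells and 104 of the 164 in null cells. The sparsest class held 128 of all 158 islands of this kind, and the shares by CpG number were not split by kind.

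By kind, 92 of 124 islands of recurrent spacing were retained in WT cells (74.2%) and 104 in null cells (83.9%). At 50% or more the order of the pools was opposite, with 57 (46.0%) and 42 (33.9%). Among islands with neither property it was 47 and 55 of 4562 (1.03% and 1.21%), and among gene-start islands 5 and 5 of 5185 (0.0964%). None of the gene-start islands reached 50% in either pool, which allows a share of up to 0.0579%. Of the 119 islands retained in both pools, 89 (74.8%) had recurrent spacing, 29 had neither property and 1, at Mael, had a gene start, whereas recurrent spacing made up 1.26% of islands with enough reads. Of the 41 islands at 50% or more in both pools, 30 had recurrent spacing and 11 had neither property. Pooled, the islands of recurrent spacing were at 41.6% and 42.3%, a difference of 0.672 points whose interval, -0.749 to 2.09, included 0.

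The 10 islands with the highest level over both pools together each held 40 to 59 positions. The highest, at chr8:93947001-93948000 (mm9, as all island coordinates), had 45 of 50 methylated reads in WT cells (90.0%) and 67 of 85 in null cells (78.8%). The most deeply read of them, at chr8:125957001-125958000, had 105 of 153 (68.6%) and 107 of 166 (64.5%). By contrast, the island with the most positions, 202 at the start of Gas1, a growth arrest gene, at chr13:60277001-60279000, had 9 of 131 (6.87%) and 4 of 374 (1.07%). The island with the most reads, at chr17:6475001-6477000, had 3 of 208 (1.44%) and 7 of 514 (1.36%).

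The recurrent islands fell into 25 families that share spacings, of which 5 held 5 or more islands and 132 together. No repeat annotation was used, so the families are numbered and not named. Recurrence did not go with methylation in every family. Family 1, 44 islands on 16 chromosomes, was at 55.0% in WT cells and 56.4% in null cells (difference 1.45 points, -1.17 to 4.08). Family 2, 40 islands, was at 48.5% and 44.1% (-4.43 points, -7.37 to -1.49). Family 4, 11 islands, was at 59.9% and 58.4%. Family 5, 8 islands of 1 chromosome, was at 2.21% and 2.79%, as low as islands without recurrence.

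Among the 5 families of 5 or more islands, family 3 differed most between the pools. Its 29 islands on 15 chromosomes were at 17.4% in WT cells and 25.8% in null cells, 8.37 points higher (5.39 to 11.2). Single islands ranged from 0 to 85.2% with a median of 8.0% in WT cells, and from 4.0 to 59.2% with a median of 25% in null cells. The null level was the higher in 23 of the 29 islands, and the ranges overlapped. The spacing most shared by its islands, with distances of 3, 7, 13, 4, 21 and 12 bp between 7 CpGs, occurred at 529 places. Outside the islands its autosomal places had levels of 11.7% and 22.1%, 10.3 points higher in null cells (8.47 to 12.1). The same comparison for the leading spacing of family 2 gave 27.2% and 29.6% (2.34 points, 0.765 to 3.89). For family 1 it gave 35.8% and 60.3% (24.6 points, 11 to 36.8) from only 95 and 116 reads, and for family 4 it gave 65.1% and 60.1% (-4.99 points, -10.2 to 0.332). A higher level outside the islands was therefore not particular to family 3. Family 3 islands had a median of 1.43 and 2.14 reads per listed site, against 1.63 and 2.11 over all islands.

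**Figure D4:**
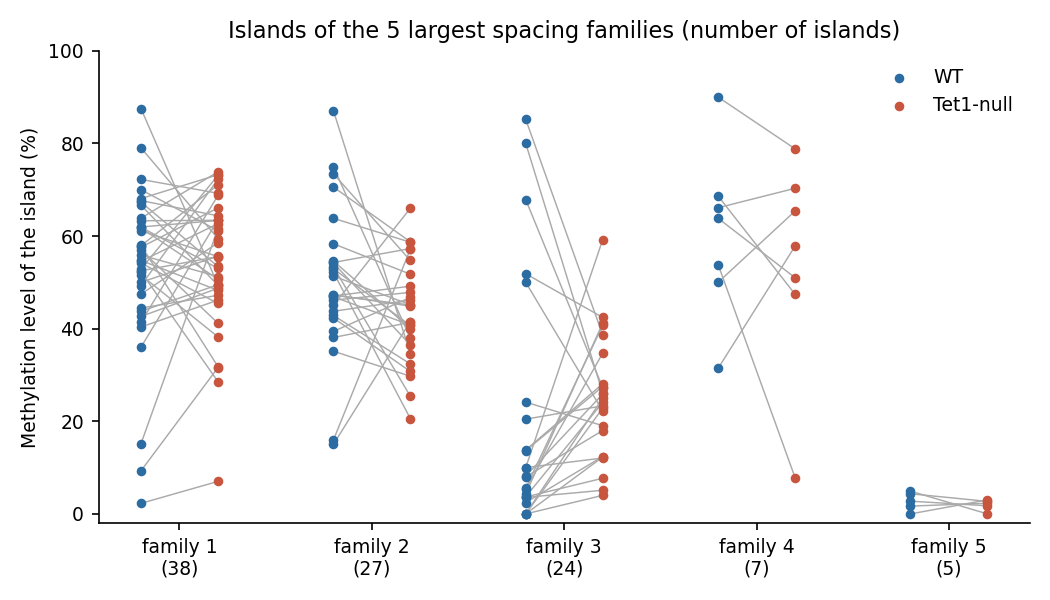
Methylation level (percent) of each island with enough reads in the 5 largest spacing families, WT in blue and Tet1-null in red, with a line joining the pools of an island. Numbers of islands are in brackets. In family 3 the Tet1-null level is the higher in 18 of 24 islands plotted, and family 5 stays under 5% in both pools.

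Islands at starts of imprinted genes, only some of which carry methylation on 1 parental copy in somatic cells, had a higher pooled level in null cells. Of these islands, 2 held nearly all of the difference. Of 47 imprinted genes listed, 27 had a start matched by spacing, and the rest were not placed. Of the 27 matched, 12 had a start on 11 islands. The level of these was 3.27% (26 of 794 reads) in WT cells and 8.14% (140 of 1719) in null cells, a difference of 4.87 points (2.96 to 6.60). Without the island of Peg3 and Usp29 it was 1.54% and 4.18%, a difference of 2.64 points. Without that of Zrsr1 as well, the 9 left had 9 of 589 reads (1.53%) against 23 of 1296 (1.77%), so the gap was 0.247 points with an interval of -1.23 to 1.38. Of 10 islands with enough reads the Tet1-null level was higher in 9, with medians of 0.806% and 1.60%. Over all 5597 gene-start islands the levels were 2.34% and 1.99%, the medians 1.85% and 1.64%, and 44.5% of islands were higher in null cells.

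Peg3, an imprinted zinc finger gene, and Usp29, which starts beside it in the opposite direction, shared the island at chr7:6682001-6684000. It had 15 of 81 methylated reads in WT cells (18.5%) and 76 of 189 in null cells (40.2%). Its first 1 kb had 0 of 42 reads (which allows up to 7.14%) and 34 of 62 (54.8%), and its second 15 of 39 (38.5%) and 42 of 127 (33.1%). The first 1 kb passed the test (Fisher's exact test, two-sided, adjusted p = 3.17e-06), and the second did not. In the first 1 kb, no WT site had more than 2 reads and no Tet1-null site more than 7, so few molecules lie behind these counts.

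Zrsr1, an imprinted gene for a splicing factor that lies within Commd1, had 2 of 124 methylated reads in WT cells (1.61%) and 41 of 234 in null cells (17.5%). Its window had an adjusted p of 0.00348 in Fisher's exact test but a difference of 15.9 points, under the 20 required, and 0.26 in the quasi-binomial F test. Mest, an imprinted gene of the hydrolase family, had 2 of 78 (2.56%) and 11 of 160 (6.88%), a difference of 4.31 points with an interval of -2.67 to 9.66. The islands of Igf2r, a receptor that clears insulin-like growth factor 2, Zfp777 and Blcap were at 0%, 0% and 1.92% in WT cells and at 0.452%, 0.465% and 2.92% in null cells. Their intervals of the difference included 0.

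Germline and meiosis genes, many of which are held silent by promoter methylation in somatic cells, had a higher pooled level in null cells but equal medians. Of 60 listed, 42 had a start matched by spacing, and the rest were not placed. Of the 42 matched, 22 had a start on an island, and their islands were at 3.08% in WT cells and 5.75% in null cells (2.67 points, 1.24 to 3.99). The null level was higher in 13 of 20 islands with enough reads, with medians of 2.96% in both. Rpl10l, a retrogene copy of the ribosomal protein gene Rpl10, gave 28 of 76 reads in null cells (36.8%). In WT cells it gave 0 of 18 (up to 16.7% allowed), too few reads for the shares above. Without it the levels were 3.13% and 4.67%. None of the windows of these islands was called.

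Among the list members with the most reads, Mov10l1, a helicase of the piRNA pathway, had 2 of 33 methylated reads in WT cells (6.06%) and 24 of 143 in null cells (16.8%), with a counting interval for the change of -3.80 to 18.96 points. Smc3 and Rad51c, of the cohesin and recombination machinery, were at 2.90% and 4.41% in WT cells and 1.95% and 2.68% in null cells. Sycp3, a protein of the synaptonemal complex chosen here after its values were seen, had 1 of 57 (1.75%) and 9 of 93 (9.68%), with an interval of -0.856 to 15.8 points. Mael, a piRNA pathway gene, was retained in both pools, with 6 of 23 (26.1%) and 17 of 85 (20%). Fkbp6, needed for meiosis, went the other way, with 4 of 33 (12.1%) and 1 of 124 (0.806%).

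The 4 other lists lay near the level of all gene-start islands. The 13 islands of DNA methylation enzymes, readers and oxidases were at 2.28% and 2.02%, among them Tet2 at 3.20% and 2.17% and Uhrf2 at 0.769% and 1.52%. The 35 islands of ribosomal protein genes were at 1.86% and 1.99%, and the 27 of developmental transcription factors at 2.07% and 1.78%. The 7 islands of pluripotency factors were at 2.93% and 1.64%, and 1 of 7 was higher in null cells. Each of these 4 differences had an interval that included 0.

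**Figure D5:**
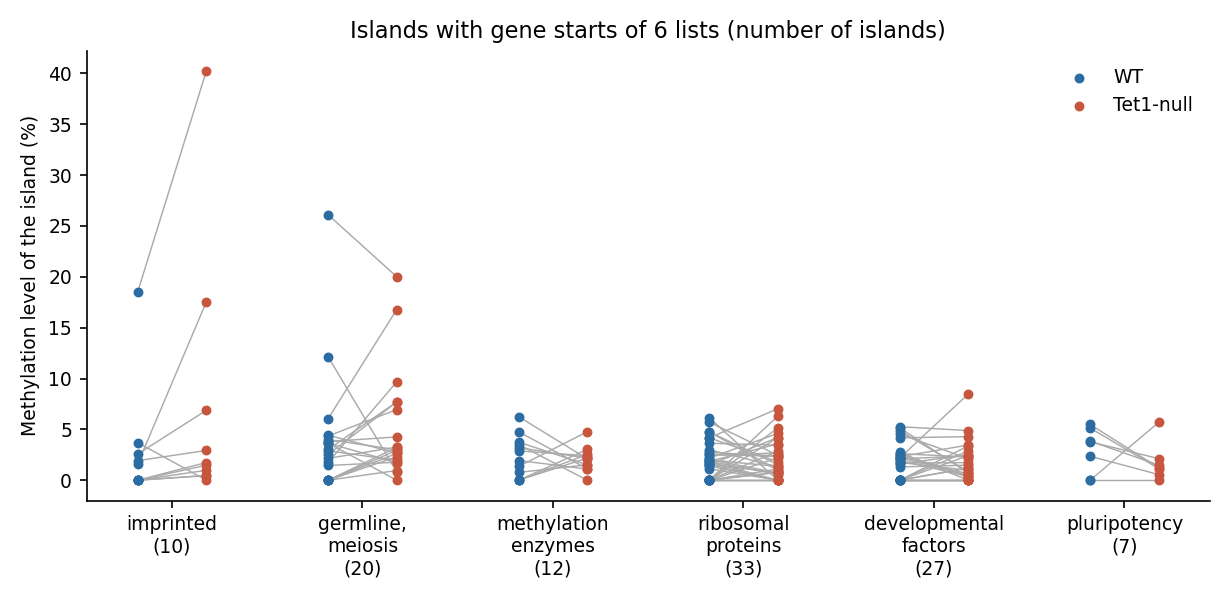
Methylation level (percent) of islands with enough reads at gene starts of 6 lists, WT in blue and Tet1-null in red, joined per island. Numbers of islands are in brackets. Peg3 with Usp29 goes from 18.5% to 40.2% among imprinted genes, and in the 4 lists on the right no island exceeds 8.47%.

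Single 1 kb windows were compared by Fisher's exact test over all 372073 windows with enough reads, of which 361 (0.0970%) were called as higher in null cells and 237 (0.0637%) as lower, at an adjusted p under 0.05 and 20 points or more. The test compares 2 pools of reads, not genotypes. Of 11372 island windows 24 (0.211%) were called higher and 21 (0.185%) lower. By kind this was 7 and 6 of 125 windows of recurrent spacing, 2 and 4 of 6122 with a gene start, and 15 and 11 of 5125 with neither. At an unadjusted p under 0.05, 193 island windows (1.70%) were higher and 463 (4.07%) lower, against 2.57% and 1.91% of all windows tested. With 40 reads required per window and pool, 21 of 7998 island windows were called higher and 17 lower. Of all 43076 windows tested there, 340 (0.789%) were called in either direction, a larger share than among islands. When only sites at least 100 bp apart were used, with fewer sites and reads required, no window was called among 2617 island windows or among all 329953 tested. Of these island windows 6 were higher and 7 lower at an unadjusted p under 0.05 in Fisher's exact test. A quasi-binomial F test called 12 island windows higher and 6 lower, where 113 of all windows (0.0304%) were called in either direction.

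The windows called rested on shallow sites. The deepest WT site of a called window had 2 to 10 reads with a median of 4, and the deepest Tet1-null site 3 to 24 with a median of 6. After Peg3, the windows of largest rise were at chr14:120856001-120857000, from 6 of 34 (17.6%) to 55 of 76 (72.4%), and at chr19:9828001-9829000, in a family 3 island, from 5 of 50 (10.0%) to 45 of 76 (59.2%). The largest fall was at chr5:125646001-125647000, from 15 of 21 (71.4%) to 13 of 133 (9.77%). Next came chr13:4981001-4982000, in a family 3 island, from 24 of 30 (80%) to 12 of 46 (26.1%), and chr14:120578001-120579000, in a family 2 island, from 27 of 31 (87.1%) to 36 of 104 (34.6%). Family 3 islands held 4 of the windows called higher and 3 of those called lower in Fisher's exact test. In the quasi-binomial F test its windows at chr19:9828001-9829000 and chr12:67016001-67017000 were called higher, and none of its windows was called lower. The fall at chr14:120578001-120579000 was not called in that test either.

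Gene-start windows called were few. D1Pas1, a DEAD-box helicase retrogene expressed in the male germline, had 1 of 92 methylated reads in WT cells (1.09%) and 28 of 117 in null cells (23.9%) in its called window (Fisher's exact test, adjusted p = 0.0009997). Of the 24 sites covered in both pools there, 17 were higher in null cells and 0 lower. Called lower were the windows of Rnf214, a RING finger gene, from 15 of 69 (21.7%) to 0 of 86 (up to 3.49% allowed), and of Edc3, an mRNA decapping factor, from 12 of 35 (34.3%) to 6 of 146 (4.11%). Stambp, a deubiquitinase, went from 10 of 50 (20%) to 0 of 107 (up to 2.80% allowed). The window shared by Morc2a and Tug1 went from 16 of 70 (22.9%) to 2 of 99 (2.02%). Traip, a ubiquitin ligase, had 0 of 38 (up to 7.89% allowed) and 20 of 93 (21.5%) and was not called. At the Rnf214 window, 4 of the 17 sites covered in both pools were lower in null cells and 0 higher. Of the 15 methylated WT read counts, 11 lay in the 250 bases before a start, at sites that null cells did not cover. Each of those sites had 1 WT read, so these counts may come from as few as 1 molecule. At the Edc3 window, none of the 16 sites covered in both pools differed in level, so its call rests on sites that WT cells did not cover. In the quasi-binomial F test the windows of Edc3 (adjusted p = 0.436) and of Morc2a and Tug1 (adjusted p = 0.0559) were not called, while those of Peg3, D1Pas1, Rnf214 and Stambp were. That test also counts a molecule at each CpG it crosses.

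Of the 26 called windows with neither property, 3 are given by position, chosen after their values were seen. The window at chr2:174125001-174126000, with 0 of 66 reads (up to 4.55% allowed) and 42 of 110 (38.2%), lay between 2 starts matched to Gnas, at 15.9 and 27.5 kb. At chr11:11925001-11926000, with 3 of 66 (4.55%) and 52 of 156 (33.3%), the nearest matched start was that of Grb10 at 2.42 kb. At chr7:135831001-135832000, with 0 of 40 (up to 7.50% allowed) and 37 of 119 (31.1%), the nearest matched start was that of Mcmbp at 52.4 kb, with that of Inpp5f on the other side at 76.9 kb. Gnas, Grb10 and Inpp5f are on the imprinted list, but no count of such neighbours among all windows was made.

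By autosome, the null level of islands was lower on 18 of 19, with an interval below 0 on 9. Chromosome 13 was the exception, at 2.73% and 3.02% (0.283 points, 0.0292 to 0.531). Chromosome 12 had the highest island levels, 4.09% and 3.67%. Chromosome 3 had the largest difference, 3.06% against 2.49% (-0.569 points, -0.815 to -0.331). The levels by autosome were given without subtracting the mitochondrial level, which was 1.66% in WT cells and 1.29% in null cells.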

How the data were processed

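Primordial germ cell DNA was tagged by Tn5, bisulfite converted, amplified and sequenced on a HiSeq 2000, per the labels' protocols. The authors deposited 1 pooled table per genotype with, per CpG site, the methylated fraction and the count of reads. Their product was a whole number at 100% of sites (tolerance 0.0005 per read). The files are on mm9 and were made with bedtools among other tools, per the submitters' processing notes. The aligner is not given in the sources used here, nor is duplicate handling. A deposited read filter drops reads with over 1.2% non-CpG cytosines.

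Mean depth was 2.21 reads per listed site (WT) and 2.85 (Tet1-null). Sums, intervals and tests used Python 3.11.15 with scipy 1.17.1, numpy 2.4.6 and pandas 2.3.3, and figures used matplotlib 3.10.9. Windows entered Fisher's exact test with 20 reads per pool and at least 5 positions that both pools covered, with Benjamini-Hochberg adjustment over all windows, after testing on simulated data. The simulated reads were independent, so that testing does not cover counts that share a molecule. A spacing is 6 distances between 7 CpGs spanning 60 to 400 bp. Promoters with 8 or more CpGs were matched by spacing, at 1 place only, to 11631 genes, of which 99.9% of neighbouring pairs kept their order. No coordinates were converted, and the 1-base offset of the tables was not checked against a genome. Islands, lists and limits were chosen with earlier results of these data known. Named were the islands of highest level, largest change, most CpGs and most reads, and per list up to 6 genes with the most reads. Mael, Sycp3, Fkbp6, Rpl10l, Traip and genes of called windows beyond the 5 largest changes in each direction were added after their values were seen. Alternatives are in the closing section.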

Additional observations from a re-analysis of the deposited data

Results flagged for a closer look

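Signal also lay in runs and islands outside the set described. The 13 narrow runs over the depth limit of 8 reads per site were at 22.9% in WT cells (1722 of 7516 reads) and 20.2% in null cells (3047 of 15055), far above the mitochondrial level. Their depth differs from that of unique sequence, and its part in the level was not tested. The 297 narrow islands of the X chromosome, chosen by the same limits, were at 5.33% in WT cells and 5.29% in null cells, above the autosomal islands in both. Their difference of -0.0441 points had an interval of -0.457 to 0.360.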

How the results depend on the processing

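No paired analysis was possible because the deposited tables pool the libraries of each genotype, and leaving out a replicate was not possible either. The difference of the island level (-0.221 points) turned to 0.0572 points when both pools had to have at least 3 reads per site, and to 0.150 points after subtracting the chrM level of each pool. It was -0.00974 points when both had to have at least 2, -0.141 at sites listed in both, -0.157 at sites at least 100 bp apart, -0.299 as a mean of site levels, -0.277 without islands of recurrent spacing, -0.146 and -0.369 over runs of 1 and of 2 windows, -0.438 with 50 positions and -0.0789 with 35 positions to a dense window, and -0.612 with positions counted only where listed in both tables (844 islands). The cause was not tested. The shares retained in the WT and Tet1-null pool were 0.575% and 0.559% with 50 positions, 2.99% and 3.42% with 35, 0.592% and 0.474% with positions listed in both tables, 3.11% and 2.88% at a level of 10%, and 0.740% and 0.618% at 50%. The shares with any methylated read were 41.6% and 58.1% for 2 or more methylated reads, 72.2% and 79.2% with a 40-read minimum, and 36.0% and 33.0% in 20 and 56.1% and 51.7% in 40 reads drawn. Called windows numbered 14 higher and 12 lower of 11372 island windows at 30 points, where 501 of all 372073 windows (0.135%) were called in either direction. In the quasi-binomial F test they numbered 12 and 6, with 113 of all windows (0.0304%). With sites at least 100 bp apart they numbered 0 and 0. Fewer island windows and reads enter there, and none was called among all windows tested either. The other 23 values for these results kept their direction and lay within the interval or within 1.5 times the count. Among alternatives chosen after seeing the data, the share of recurrent spacing among islands retained in both pools was 63.9% with 10 places, 87.4% with 2 places and 55.5% when 25% of the spacings must recur, and the family 3 difference was 5.34 points as a mean of island levels. Depth limits single islands: at the minimum of 20 reads per pool set for the shares, a level of 5% rests on 1 methylated read.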
